A study of Saccharomyces cerevisiae with 6 samples.

Results

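The genes described here are 40 yeast genes of the peroxisome and of fatty acid oxidation, out of 5449 Saccharomyces cerevisiae genes tested. They were chosen by name: 23 peroxins, 7 genes of beta-oxidation, 5 of fatty acid uptake, transport and activation, 3 of metabolite shuttles, and the transcription factor genes PIP2 and ADR1. Each of the 40 had 1 probe set on the Affymetrix yeast array through the platform annotation, and none was lost to a filter on low values. The study compared 3 samples of the nab2-1 mutant with 3 of the wild type, 1 array per sample. Per the labels the mutant was a W303-1A derivative whose chromosomal NAB2 was deleted with HIS3 with a LEU2 centromeric plasmid as its source of the nab2-1 allele, and the wild type was W303-1A without these changes. Both were grown exponentially in YPD, the rich glucose medium, at 30 °C, and total RNA was the starting material. NAB2 encodes a nuclear poly(A)-binding protein that acts in mRNA export. No label tells whether replicates came from separate cultures, and p-values therefore cover the spread between these arrays, which may be technical. In such bulk RNA, fewer cells of a kind and less RNA per cell cannot be told apart.

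Peroxisomes are the only site of fatty acid beta-oxidation in budding yeast. Peroxins, the Pex proteins, build the organelle: soluble receptors bring enzymes to a docking complex, a ubiquitin and ATPase machine sends the receptors back to the cytosol, and other peroxins insert membrane proteins or set the size and number of the organelles. Acyl-CoA enters through an ABC transporter and is shortened by an oxidase, a multifunctional enzyme and a thiolase, and acetyl-CoA and reducing equivalents leave through shuttles. Glucose represses many of these genes, and fatty acids induce them through the Oaf1-Pip2 pair and through Adr1.

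All values below are normalized log2 signals, and differences are nab2-1 minus wild type with their standard error (SE, n = 3 arrays per group). Medians of the tested genes were close: 10.265 to 10.286 on nab2-1 arrays, 10.278 to 10.302 on wild type arrays. The median over all probe sets was not level: nab2-1 arrays had 7.09 to 7.14, wild type arrays 6.81 to 6.88. Part of a rise in a dim gene may thus be shared by dim probe sets at large. How large that part is was not tested. Quantile normalization lowered the dim genes POT1, PEX18, MLS1 and CRC1, as given below. A gene passed when limma's p after Benjamini-Hochberg adjustment over the 5449 genes was under 0.05, the meaning of "adjusted p" throughout. NAB2 itself averaged 13.71 in nab2-1 and 12.36 in the wild type, which is higher by 1.35 ± 0.07 (adjusted p = 4.9e-06); no source used here places its probes against the mutated stretch, and the value checks no label. Across genes, arrays of a group correlated at 0.994 to 0.998 and arrays of different groups at 0.940 to 0.947. The signal at the 3′ end of ACT1 minus that at its 5′ end was 0.239 to 0.311 in nab2-1 against 0.231 to 0.263 in the wild type, so the groups overlapped in this measure of RNA quality. W303-1A is a MATa strain. The 4 measured markers of the opposite mating type, MF(ALPHA)1, MF(ALPHA)2, STE3 and SAG1, had mean signals of 12.74 to 14.13 in nab2-1 against 12.26 to 13.91 in the wild type, while the 6 MATa markers had 8.45 to 10.05 in nab2-1 against 7.24 to 9.08 in the wild type. The alpha-type markers were thus far above the level of probe sets without target RNA, 4.27, in both groups, which goes against the mating type of the labelled strain. All 6 MATa markers rose in nab2-1, and of the 4 alpha-type markers 3 rose and 1, SAG1, fell. After correction for shifts of whole chromosomes, described below, all 6 MATa markers were still higher. Of the alpha-type markers 1 was then higher and 2 lower. The part of mating type in the results below was not tested.

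Across the 40 genes the largest change was that of FAT3, a gene of fatty acid uptake, which was 9.41-fold higher in nab2-1. That fold includes the shift of chromosome XI described below: corrected for it, the log2 difference was 2.45 instead of 3.23. The wild type signals of FAT3 were dim, at 5.35 to 5.80. The genes of fatty acid transport and activation PXA2, PXA1 and FAA2, the carnitine acetyltransferase gene CAT2 and the peroxisome proliferation genes PEX25 and PEX27 were also higher. As deposited, 13 of the 23 peroxins were lower, led by PEX31, against 37.2% of all genes. After correction for shifts of whole chromosomes, described below, 9 of the 23 were lower, against 30.6% of all genes. The oxidase gene POX1 and the reductase gene SPS19 were lower too. In all, 12 of the 40 rose and 20 fell, and 8 did not pass. Of all genes tested, 67.4% passed in either direction, 30.2% higher and 37.2% lower, so that a change in one of these genes is not in itself unusual on these arrays. The median difference over the 40 was -0.15 and that over all genes -0.05. At least 2-fold changes were found for 3 genes upward, against 5.91% of all genes, and for 1 downward, against 3.96%. The 3 were FAT3, PXA2 and PXA1, all on chromosomes XI and XVI, which were shifted as a whole. Corrected for that shift, PXA2 was at 0.63 and PXA1 at 0.18. The 3 nab2-1 values lay wholly above the 3 wild type values for 12 of the 40 genes and wholly below for 21, whereas this held for 32.8% and 41.1% of all genes, 73.9% in all.

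**Figure D1:**
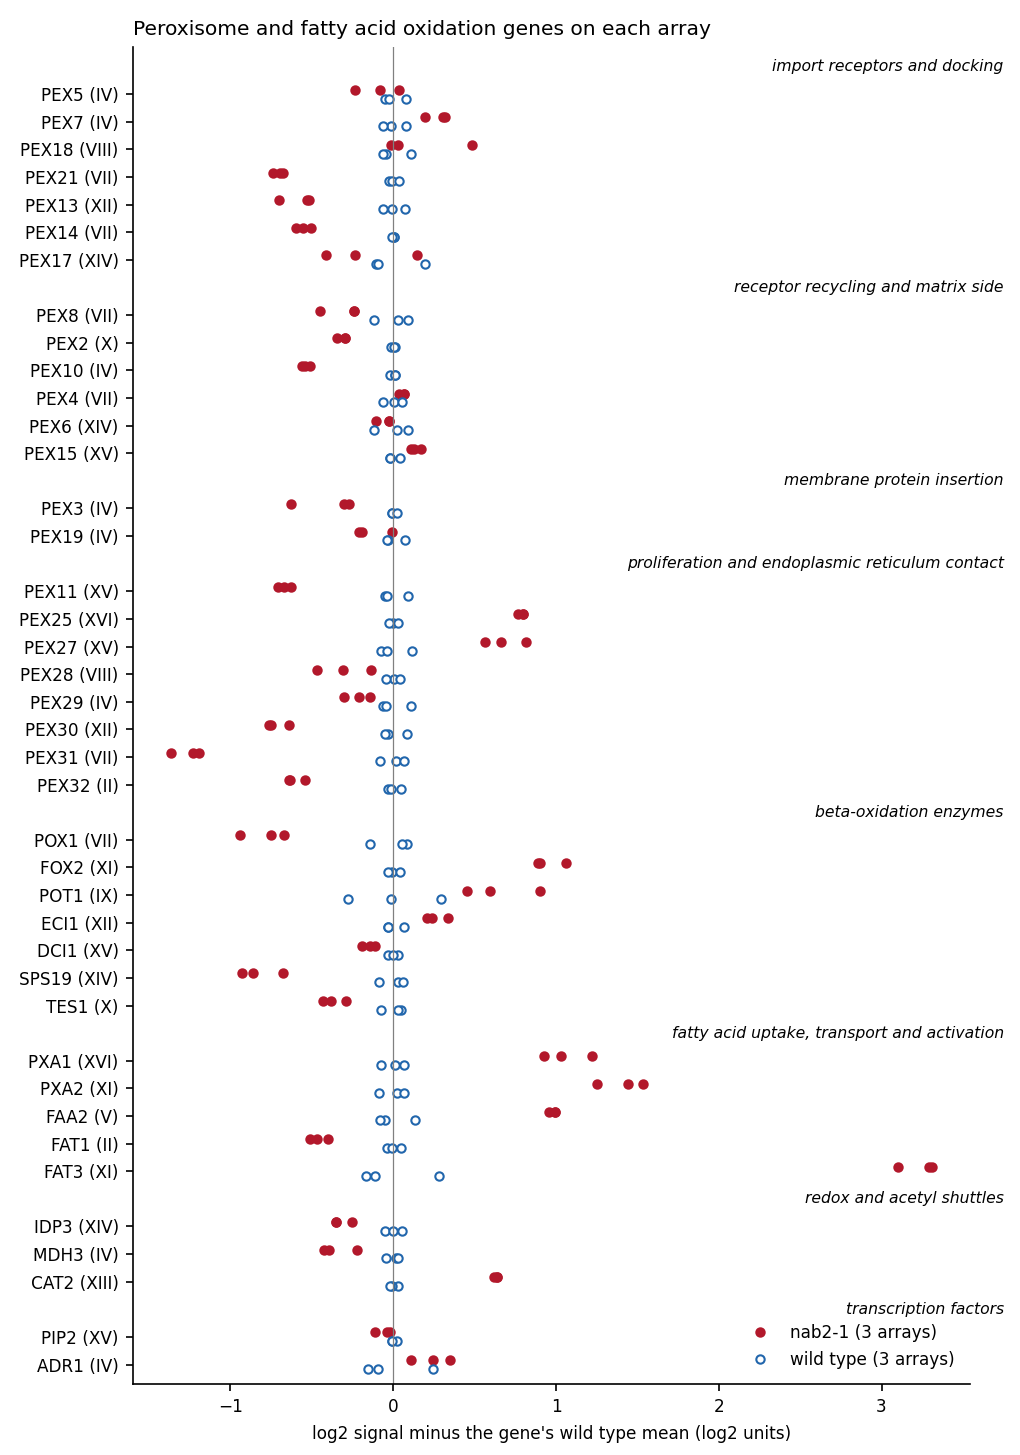
Log2 signal of each of the 40 genes on each array, minus the gene's wild type mean (x axis, log2 units), with genes in rows grouped by role and the chromosome in brackets; filled points are the 3 nab2-1 arrays and open points the 3 wild type arrays. FAT3 stands furthest to the right and PEX31 furthest to the left, and the groups overlap in 7 genes.

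Of the 40 genes 5 lie on chromosomes that were shifted as a whole. Genes on chromosome I had a median difference of 0.73 on these arrays, those on XI 0.77 and those on XVI 0.75, against -0.14 to -0.08 for each of the other 13 chromosomes. FAT3, PXA2 and FOX2 lie on XI, PXA1 and PEX25 on XVI, and none of the 40 on I. All 5 rose, as did 89.6% of all genes on the 3 chromosomes, where 2.97% fell. On the other 13 chromosomes 7 of the 35 genes rose and 20 fell, where 19.8% of all genes rose and 43.2% fell. The comparison was therefore repeated after each array had been lowered by its shift in the median level of the gene's chromosome. Differences from that comparison are given as relative to the chromosome. The shift in median level between the groups was 0.60 on I, 0.78 on XI and 0.88 on XVI. On the other 13 chromosomes it ran from -0.22 on X to -0.05 on VI, which differs from the medians of gene differences above. On that scale 12 of the 40 stood higher and 14 lower (median -0.07), against 31.4% and 30.6% of all genes (62.0% in either direction) and a median of 0.01. Together 24 genes kept their call and direction on both scales, 10 higher and 14 lower, against 20.6% and 25.5% of all genes. The call was lost by 8 genes, 6 lower and 2 higher, and gained by PEX4 and ADR1. Only PEX25 and PXA1 of these 10 lie on the shifted chromosomes. Where the shift was taken instead as the median of the gene deviations, a definition added after the data were seen, 13 were higher and 16 lower, against 30.1% and 31.5% of all genes (61.6% in either direction): PEX2, TES1 and PXA1 then passed too. Scaled to the array's probe sets for spiked poly(A) controls, which lifted the median of all genes to 0.22, 14 of the 40 were higher and 6 lower, against 39.1% and 11.4% of all genes (50.6% in either direction). The 6 still lower were PEX31, SPS19, POX1, PEX30, PEX21 and PEX11. The controls averaged 7.06 to 7.17 on the nab2-1 arrays and 7.22 to 7.59 on the wild type arrays. Each array's shift from its controls is shared by all genes, while the test treats genes as independent. Its adjusted p, as low as 1.5e-117 for FAT3, therefore does not measure the spread of 3 arrays per group. Calls scaled to the spiked controls, here and below, are only descriptive.

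**Figure D2:**
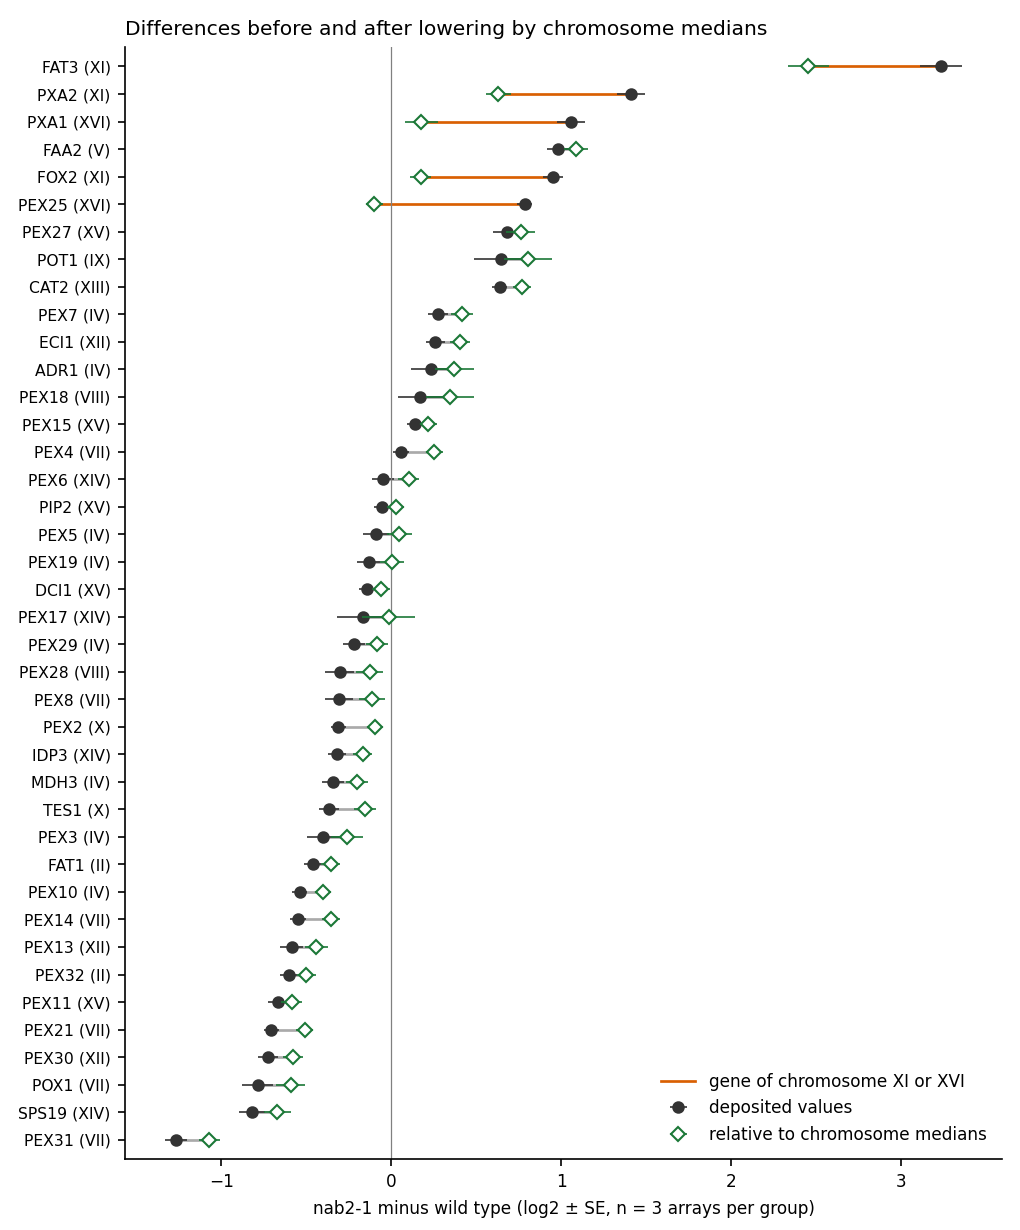
Difference between nab2-1 and wild type for each of the 40 genes (x axis, log2 ± SE, n = 3 arrays per group), as deposited (filled circles) and relative to the chromosome (open diamonds). The 5 genes of chromosomes XI and XVI, joined by coloured lines, move left by 0.78 or 0.88, and FAT3 stays the highest at 2.45.

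Among the 5 genes of fatty acid uptake, transport and activation 4 rose and 1 fell, with a median of 1.06, which was 0.63 relative to the chromosome. Of those that rose, FAT3 and PXA2 lie on XI and PXA1 on XVI, and only FAA2 lies elsewhere. On chromosomes I, XI and XVI 89.6% of all genes rose, against 19.8% on the other 13. FAT3, systematic name YKL187C, had log2 signals of 8.83, 8.62 and 8.81 in nab2-1 and 5.41, 5.80 and 5.35 in the wild type. The lowest nab2-1 value lay far above the highest wild type value, and the difference of 3.23 ± 0.12 (adjusted p = 1.6e-06) was 2.45 ± 0.12 relative to the chromosome (adjusted p = 2.9e-06). PXA1 and PXA2 encode the 2 subunits of the ABC transporter that brings long-chain acyl-CoA into the peroxisome. PXA2 had 9.45, 9.64 and 9.73 in nab2-1 against 8.11, 8.22 and 8.26 in the wild type, and PXA1 had 9.21, 9.32 and 9.51 in nab2-1 against 8.30, 8.21 and 8.35 in the wild type. Every nab2-1 value of both genes exceeded every wild type value, with rises of 1.41 ± 0.08 for PXA2 (adjusted p = 6.6e-06) and 1.06 ± 0.08 for PXA1 (adjusted p = 2.5e-05). Relative to the chromosome the 2 subunit genes parted: PXA2 was still higher by 0.63 ± 0.07 (adjusted p = 0.00019), but PXA1 differed by 0.18 ± 0.10 (adjusted p = 0.15), or by 0.31 with the median of gene deviations (adjusted p = 0.012) and 0.25 without nab2-1 replicate 1 (adjusted p = 0.047). Whether the 2 genes differed from each other was not tested.

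FAA2 and FAT1 went in opposite directions, and neither lies on a shifted chromosome. FAA2, which encodes the peroxisomal acyl-CoA synthetase for medium-chain fatty acids, had 8.48, 8.48 and 8.44 in nab2-1 and 7.43, 7.62 and 7.40 in the wild type. The rise of 0.98 ± 0.07 (adjusted p = 1.3e-05) was 1.09 ± 0.07 relative to the chromosome (adjusted p = 9.4e-06), after FAT3 the largest rise on that scale among the 40. FAT1, which encodes a very-long-chain acyl-CoA synthetase that also acts in fatty acid import, had 11.58, 11.65 and 11.54 in nab2-1 and 12.01, 12.04 and 12.10 in the wild type. It fell by 0.46 ± 0.05 (adjusted p = 0.00013), with no overlap of the groups, and was at -0.36 relative to the chromosome (adjusted p = 0.00089). Scaled to the spiked poly(A) controls FAT1 no longer passed, at -0.19.

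FAT3 and PXA2 are neighbours on chromosome XI. The genes on either side of the pair were MTR2, an mRNA export gene next to FAT3, and HYM1, next to PXA2. MTR2 rose by 0.83 ± 0.05 and was at 0.05 relative to the chromosome, and HYM1, shown because it flanks the pair, rose by 1.29 and was at 0.51. FAT3 thus stood out from every measured gene within 12 places of it, the next highest being PXA2 at 1.41 and LST4 at 1.33; LST4 and the lowest of them, ZRT3 at -0.27, were named after their values were seen.

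**Figure D3:**
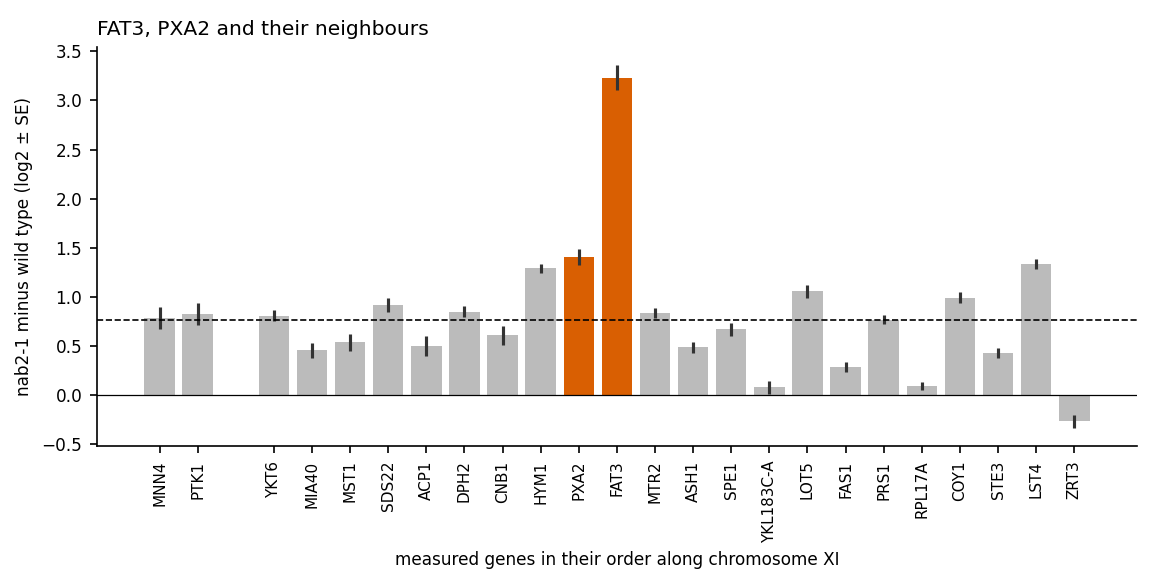
Difference between nab2-1 and wild type (y axis, log2 ± SE, n = 3 arrays per group) for the measured genes within 12 places of FAT3, in their order along chromosome XI; coloured bars are PXA2 and FAT3 and the dashed line is the median of the chromosome, 0.77. FAT3 reaches 3.23 while the other bars lie between -0.27 and 1.41.

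Of the 7 genes of beta-oxidation enzymes 3 were higher and 4 lower as deposited, against 30.2% and 37.2% of all genes. Relative to the chromosome 3 were higher and 2 lower, against 31.4% and 30.6% of all genes. Of the core enzymes, the acyl-CoA oxidase gene POX1 fell, while FOX2, the gene of the multifunctional enzyme that follows it, and POT1, the thiolase gene, rose. POX1 had 4.35, 4.62 and 4.54 in nab2-1 and 5.15, 5.38 and 5.35 in the wild type. Its nab2-1 signals lay close to the level of probe sets without target RNA, 4.27, and the difference was -0.79 ± 0.09 (adjusted p = 0.00016), or -0.59 relative to the chromosome (adjusted p = 0.00054). POT1 was also dim, with 6.08, 6.39 and 5.94 in nab2-1 and 5.47, 5.78 and 5.21 in the wild type, and its replicates spread more than those of most other genes here. It rose by 0.65 ± 0.16 (adjusted p = 0.0094) and by 0.80 ± 0.14 relative to the chromosome (adjusted p = 0.0015). With quantile normalization of the deposited values POT1 did not pass, at 0.28 (adjusted p = 0.19). FOX2 had 10.68, 10.69 and 10.85 in nab2-1 against 9.78, 9.76 and 9.83 in the wild type, with a rise of 0.95 ± 0.06 (adjusted p = 9.3e-06). Most of that rise was shared with chromosome XI: relative to it FOX2 was at 0.17 ± 0.06 (adjusted p = 0.045), a call lost when any one array other than nab2-1 replicate 2 was left out, with adjusted p from 0.059 to 0.15.

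The auxiliary enzymes of beta-oxidation, which handle unsaturated fatty acids, differed among themselves. SPS19, the 2,4-dienoyl-CoA reductase gene, had 6.75, 6.82 and 7.0 in nab2-1 and 7.71, 7.74 and 7.59 in the wild type. It fell by 0.82 ± 0.08 (adjusted p = 6.2e-05) and was at -0.67 relative to the chromosome (adjusted p = 0.00018). ECI1, the enoyl-CoA isomerase gene, had 8.83, 8.86 and 8.96 in nab2-1 against 8.59, 8.59 and 8.69 in the wild type, a small rise of 0.26 ± 0.06 (adjusted p = 0.0044) that was 0.40 relative to the chromosome (adjusted p = 0.00065). Its relative DCI1 had 7.44, 7.49 and 7.52 in nab2-1 and 7.60, 7.66 and 7.63 in the wild type. That difference of -0.14 ± 0.05 (adjusted p = 0.028) did not pass relative to the chromosome, at -0.06 (adjusted p = 0.33), though it did there with quantile normalization, at -0.20 (adjusted p = 0.0077), and with cyclic loess, at -0.17 (adjusted p = 0.016). It turned to 0.13 when scaled to the spiked controls, and the deposited call was lost with the trended robust variance (adjusted p = 0.15) and without any one array other than nab2-1 replicate 3 (adjusted p = 0.051 to 0.085). TES1, the acyl-CoA thioesterase gene, had 8.96, 9.05 and 8.91 in nab2-1 against 9.27, 9.39 and 9.37 in the wild type, a fall of 0.37 ± 0.06 (adjusted p = 0.00093). It was at -0.15 relative to the chromosome (adjusted p = 0.068), or at -0.22 with the median of gene deviations (adjusted p = 0.011) and -0.21 without wild type replicate 1 (adjusted p = 0.029).

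Of the 3 shuttle genes, CAT2 rose and the 2 dehydrogenase genes fell, where 30.2% of all genes rose and 37.2% fell. CAT2 encodes the carnitine acetyltransferase that readies acetyl units for export to the mitochondrion. Its signals were 8.89, 8.89 and 8.87 in nab2-1 against 8.28, 8.24 and 8.23 in the wild type, among the tightest replicates of the 40, and it rose by 0.64 ± 0.04 (adjusted p = 1.3e-05), or by 0.77 relative to the chromosome (adjusted p = 1.3e-05). IDP3, the peroxisomal NADP-dependent isocitrate dehydrogenase gene, had 7.06, 7.16 and 7.06 in nab2-1 against 7.36, 7.47 and 7.41 in the wild type, a fall of 0.32 ± 0.05 (adjusted p = 0.0013). MDH3, the peroxisomal malate dehydrogenase gene, had 11.70, 11.53 and 11.50 in nab2-1 against 11.94, 11.88 and 11.95 in the wild type, a fall of 0.34 ± 0.06 (adjusted p = 0.0021). Both still passed relative to the chromosome, at -0.17 for IDP3 (adjusted p = 0.028) and -0.20 for MDH3 (adjusted p = 0.026). These 2 calls were lost without some single arrays, for IDP3 without nab2-1 replicate 3 or wild type replicate 2 (adjusted p = 0.092 and 0.091) and with the trended robust variance (adjusted p = 0.14), and for MDH3 without nab2-1 replicate 2 or 3 or wild type replicate 1 or 3 (adjusted p = 0.065 to 0.089).

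Of the 23 peroxins 4 rose and 13 fell, with a median of -0.30. Relative to the chromosome 4 stood higher and 9 lower (median -0.10). For comparison, 30.2% of all genes rose and 37.2% fell, and on the 13 unshifted chromosomes 19.8% and 43.2%. Set against the chromosome, 31.4% of all genes stood higher and 30.6% lower. By the spiked-control scale the peroxins split into 5 up and 4 down, with a median of -0.03. Whether peroxins as a set differed from all genes was not tested. The peroxins of proliferation and of contact with the endoplasmic reticulum held both the largest fall and the largest rises. Of these 8, 2 rose and 6 fell. PEX31, one of 3 related membrane proteins that restrain peroxisome size and number, had 8.87, 9.00 and 9.04 in nab2-1 and 10.25, 10.15 and 10.30 in the wild type. It fell by 1.27 ± 0.06 (adjusted p = 4.1e-06), 2.40-fold, and was at -1.07 relative to the chromosome (adjusted p = 5.1e-06). The other two of that family fell as well. PEX30 had 10.11, 10.22 and 10.10 in nab2-1 and 10.83, 10.81 and 10.95 in the wild type (-0.72 ± 0.06, adjusted p = 3.1e-05). PEX32 had 8.90, 8.99 and 8.89 in nab2-1 and 9.50, 9.52 and 9.58 in the wild type (-0.60 ± 0.05, adjusted p = 3.6e-05). Relative to the chromosome PEX30 was at -0.58 and PEX32 at -0.50, and both passed. PEX28 and PEX29 also limit peroxisome number. PEX28 had 8.21, 8.37 and 8.54 in nab2-1 against 8.68, 8.63 and 8.72 in the wild type, and PEX29 had 9.50, 9.57 and 9.41 in nab2-1 against 9.65, 9.67 and 9.82 in the wild type. These groups did not overlap, and the differences were smaller, at -0.30 ± 0.08 (adjusted p = 0.014) and -0.22 ± 0.07 (adjusted p = 0.020). Neither passed relative to the chromosome, and PEX29 turned to 0.05 when scaled to the spiked controls. The deposited call of PEX29 was lost without nab2-1 replicate 3 (adjusted p = 0.067) or wild type replicate 3 (adjusted p = 0.062), and with cyclic loess (adjusted p = 0.062).

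The 3 genes of the PEX11 family, which promote peroxisome proliferation, did not move together. PEX11 had 9.57, 9.49 and 9.53 in nab2-1 against 10.29, 10.15 and 10.16 in the wild type, a fall of 0.67 ± 0.06 (adjusted p = 3.5e-05). PEX27 had 8.70, 8.60 and 8.85 in nab2-1 against 7.96, 8.0 and 8.15 in the wild type, with a rise of 0.68 ± 0.08 (adjusted p = 0.00018). Both genes lie on chromosome XV and kept these directions relative to it, at -0.59 for PEX11 (adjusted p = 0.0001) and 0.76 for PEX27 (adjusted p = 0.00013). PEX25 had 11.16, 11.19 and 11.19 in nab2-1 against 10.39, 10.42 and 10.37 in the wild type, with a rise of 0.78 ± 0.04 (adjusted p = 5.6e-06). Relative to chromosome XVI it did not pass, at -0.10 ± 0.05 (adjusted p = 0.12), or 0.04 with the median of gene deviations.

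Among the 7 import receptor and docking genes 3 fell and 1 rose on both scales, against 25.5% and 20.6% of all genes. PEX13 and PEX14 encode the core of the docking complex. PEX14 had 9.87, 9.92 and 9.83 in nab2-1 and 10.43, 10.43 and 10.42 in the wild type, and fell by 0.55 ± 0.05 (adjusted p = 3.5e-05). PEX13 had 8.99, 9.17 and 9.16 in nab2-1 and 9.76, 9.68 and 9.63 in the wild type, and fell by 0.59 ± 0.07 (adjusted p = 0.00016). Relative to the chromosome PEX14 was at -0.35 (adjusted p = 0.00076) and PEX13 at -0.44 (adjusted p = 0.00072), and neither passed when scaled to the spiked controls. The third docking gene, PEX17, had overlapping groups, with 8.0, 7.44 and 7.62 in nab2-1 and 7.75, 7.76 and 8.05 in the wild type (adjusted p = 0.35); without nab2-1 replicate 1 its difference was -0.32 (adjusted p = 0.038).

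The receptor genes went separate ways. PEX5, the receptor gene for the common carboxy-terminal targeting signal, had 9.46, 9.73 and 9.61 in nab2-1 and 9.64, 9.67 and 9.77 in the wild type, and the groups overlapped (adjusted p = 0.31). PEX7, the receptor gene for the amino-terminal signal carried by thiolase, had 9.99, 10.11 and 10.10 in nab2-1 and 9.78, 9.87 and 9.73 in the wild type. It rose by 0.28 ± 0.06 (adjusted p = 0.0042), or by 0.41 relative to the chromosome (adjusted p = 0.00081). Pex7 works with either of a pair of related co-receptors, Pex18 and Pex21. PEX21 had 9.00, 9.02 and 8.96 in nab2-1 against 9.67, 9.69 and 9.73 in the wild type, a fall of 0.70 ± 0.05 (adjusted p = 9.7e-06), and stood at -0.51 relative to the chromosome (adjusted p = 7e-05). PEX18 was dim and uneven, with 5.75, 5.25 and 5.29 in nab2-1 and 5.22, 5.20 and 5.37 in the wild type (adjusted p = 0.29, and 0.063 relative to the chromosome). PEX18 passed relative to the chromosome without nab2-1 replicate 2 or 3 (adjusted p = 0.044 and 0.045).

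Of the 6 genes of receptor recycling and of the matrix side 3 fell and 1 rose as deposited, against 37.2% and 30.2% of all genes. Relative to the chromosome 1 was lower and 2 were higher, against 30.6% and 31.4% of all genes. PEX2 and PEX10 encode RING ubiquitin ligases of the peroxisomal membrane. PEX10 had 8.99, 8.96 and 8.94 in nab2-1 against 9.48, 9.51 and 9.51 in the wild type, a fall of 0.54 ± 0.04 (adjusted p = 2.8e-05) that remained relative to the chromosome at -0.40 (adjusted p = 0.00022). PEX2 had 10.21, 10.21 and 10.16 in nab2-1 against 10.52, 10.49 and 10.51 in the wild type, a fall of 0.31 ± 0.04 (adjusted p = 0.0005). PEX2 stood relative to the chromosome at -0.10 (adjusted p = 0.12), or at -0.16 with the median of gene deviations (adjusted p = 0.013). PEX8, whose protein links docking and ligase complexes from inside the organelle, had 10.05, 10.26 and 10.26 in nab2-1 against 10.38, 10.59 and 10.53 in the wild type. The groups did not overlap, and it fell by 0.31 ± 0.08 (adjusted p = 0.011) but was at -0.11 relative to the chromosome (adjusted p = 0.23). PEX4, the gene of the ubiquitin-conjugating enzyme, had 8.36, 8.33 and 8.36 in nab2-1 against 8.30, 8.23 and 8.35 in the wild type. Its groups overlapped, and it differed by 0.06 ± 0.05 (adjusted p = 0.32) and passed relative to the chromosome, at 0.25 (adjusted p = 0.0030). PEX6 encodes an ATPase that pulls receptors out of the membrane, and PEX15 its membrane anchor. PEX6 had 9.48, 9.56 and 9.56 in nab2-1 and 9.47, 9.61 and 9.68 in the wild type, overlapping groups with a difference of -0.05 ± 0.07 (adjusted p = 0.52). For PEX15 the values were 9.30, 9.32 and 9.36 in nab2-1 and 9.23, 9.17 and 9.17 in the wild type, without overlap. PEX15 rose by 0.14 ± 0.05 (adjusted p = 0.032), a call lost without nab2-1 replicate 2 or 3 or wild type replicate 2 or 3 (adjusted p = 0.073 to 0.10) and with the trended robust variance (adjusted p = 0.056); relative to the chromosome it was at 0.22 (adjusted p = 0.0065).

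The pair that inserts peroxisomal membrane proteins was lower or did not differ beyond the spread. PEX3, the gene of the membrane receptor, had 9.18, 9.54 and 9.51 in nab2-1 and 9.80, 9.80 and 9.83 in the wild type. It fell by 0.40 ± 0.09 (adjusted p = 0.0070), with 1 nab2-1 array lower than the other two, and was at -0.26 relative to the chromosome (adjusted p = 0.040), a call lost without any one wild type array (adjusted p = 0.086 to 0.092) and with quantile normalization or cyclic loess (adjusted p = 0.053 each). PEX19, the gene of the soluble carrier, had 10.15, 10.35 and 10.17 in nab2-1 and 10.33, 10.43 and 10.32 in the wild type. It differed by -0.13 ± 0.07 (adjusted p = 0.12), and its groups overlapped. Without nab2-1 replicate 2 that difference was -0.19 (adjusted p = 0.029).

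Neither transcription factor gene passed as deposited. PIP2, whose protein pairs with Oaf1 on oleate response elements, had 9.10, 9.08 and 9.01 in nab2-1 against 9.11, 9.14 and 9.11 in the wild type, a difference of -0.06 ± 0.05 (adjusted p = 0.31). ADR1, the gene of an activator of glucose-repressed genes, had 9.56, 9.66 and 9.42 in nab2-1 against 9.22, 9.56 and 9.16 in the wild type, a difference of 0.23 ± 0.12 (adjusted p = 0.11). Its groups overlapped through wild type replicate 2, without which the difference was 0.36 (adjusted p = 0.0095). ADR1 was higher relative to the chromosome by 0.37 ± 0.12 (adjusted p = 0.025). That call was lost without nab2-1 replicate 1 or 2 or wild type replicate 1 or 3 (adjusted p = 0.053 to 0.084).

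Other genes of the same pathway were read from the same 2 fits. Counts in the lists below are as deposited, where 30.2% of all genes rose and 37.2% fell. Both other peroxins measured, PEX22, which anchors the ubiquitin-conjugating enzyme Pex4, and PEX34, a gene of peroxisome number, rose, by 0.77 ± 0.06 (adjusted p = 1.7e-05) and 0.36 ± 0.06 (adjusted p = 0.00093). PEX22 lies on chromosome I and was at 0.17 relative to it (adjusted p = 0.033), but at 0.04 with the median of gene deviations (adjusted p = 0.54). Its call relative to the chromosome was lost without nab2-1 replicate 1 or 2 or wild type replicate 2 or 3 (adjusted p = 0.061 to 0.10). The same held with the replicate block (0.057), with every probe set (0.055) and without the dimmest 25% of genes (0.30). Of 10 genes of other peroxisomal proteins 3 rose and 5 fell. CTA1, the peroxisomal catalase gene, averaged 7.92 in nab2-1 against 6.84 in the wild type, with a rise of 1.08 ± 0.08 (adjusted p = 2.5e-05) that was 1.22 relative to the chromosome. STR3, the cystathionine beta-lyase gene, averaged 7.49 in nab2-1 against 9.10 in the wild type, a fall of 1.61 ± 0.07 (adjusted p = 2.1e-06). ANT1, the peroxisomal ATP carrier gene on chromosome XVI, rose by 0.63 ± 0.04 (adjusted p = 1.4e-05) as deposited but was lower relative to the chromosome, at -0.25 (adjusted p = 0.0042). The glycerol phosphate dehydrogenase gene GPD1 fell by 0.63 ± 0.09 (adjusted p = 0.00051), and AAT2, LPX1, GTO1 and NPY1 had smaller differences of -0.35, -0.28, -0.27 and 0.29, all past the threshold. GTO1 did not pass relative to the chromosome, at -0.07 (adjusted p = 0.24), and AAT2, LPX1 and GTO1 did not pass when scaled to the spiked controls.

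Of 8 genes of division, inheritance and turnover 2 rose and 4 fell. ATG36, the receptor gene for the autophagy of peroxisomes, averaged 7.18 in nab2-1 against 8.46 in the wild type, a fall of 1.28 ± 0.05 (adjusted p = 1.8e-06) that was -1.07 relative to the chromosome. The fission genes DNM1 and FIS1 fell by 0.41 and 0.28 (adjusted p = 0.0008 and 0.0060), and relative to the chromosome DNM1 still passed at -0.26 (adjusted p = 0.0091) while FIS1 did not, at -0.12 (adjusted p = 0.12). VPS1, a dynamin-like gene on chromosome XI, rose by 0.34 (adjusted p = 0.00042) and was at -0.44 relative to the chromosome (adjusted p = 0.00023). CAF4, a fission adaptor gene on XI, rose by 0.68 (adjusted p = 2.5e-05) and was at -0.10 relative to it. INP2, which carries peroxisomes into the bud, fell by 0.35 (adjusted p = 0.0098) and did not pass relative to the chromosome, at -0.21 (adjusted p = 0.050). None of DNM1, FIS1 and INP2 passed when scaled to the spiked controls.

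Of 9 genes of fatty acid activation and lipolysis outside the peroxisome 3 rose and 4 fell. The long-chain acyl-CoA synthetase genes FAA1 and FAA3 both fell. FAA1 averaged 11.86 in nab2-1 and 13.04 in the wild type (-1.19 ± 0.10, adjusted p = 3.7e-05), and FAA3 averaged 9.71 in nab2-1 and 10.79 in the wild type (-1.08 ± 0.05, adjusted p = 3.1e-06). Against the chromosome they stood at -1.10 and -0.93, so that these genes and FAA2 changed in opposite directions on both scales. The triacylglycerol lipase gene TGL3 fell by 0.58 (adjusted p = 3.2e-05), while the lipase genes TGL4 and YJU3, both on XI, rose by 0.74 and 0.67 and stood at -0.04 and -0.11 once set against the chromosome. TGL1, on XI too, fell by 0.15 as deposited (adjusted p = 0.046) and was at -0.93 relative to it (adjusted p = 1.4e-05). FAA4, another long-chain synthetase gene, rose by 0.21 ± 0.08 at the edge of the threshold (adjusted p = 0.050). As deposited, FAA4 passed without nab2-1 replicate 1 and with no other array left out (adjusted p up to 0.11), and TGL1 likewise (adjusted p up to 0.14). TGL1 did not pass as deposited with quantile, median or cyclic loess scaling either (adjusted p = 0.076 to 0.10).

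Of 9 genes of the glyoxylate cycle and acetyl transfer 5 rose and 3 fell, with a median of 0.40, or 0.17 relative to the chromosome. YAT1, an outer mitochondrial carnitine acetyltransferase gene on chromosome I, averaged 9.89 in nab2-1 against 8.09 in the wild type, with a rise of 1.80 ± 0.19 (adjusted p = 0.00011) that was 1.20 relative to the chromosome (adjusted p = 0.00032). With the median of gene deviations YAT1 was at 1.07 (adjusted p = 0.0009). MDH2, the cytosolic malate dehydrogenase gene, averaged 11.67 in nab2-1 and 10.53 in the wild type (1.14 ± 0.07, adjusted p = 8.9e-06). The malate synthase gene MLS1 rose by 0.46 and the carnitine carrier gene CRC1 by 0.40 (adjusted p = 0.0020 and 0.0072), both dim. With quantile normalization neither passed, at 0.06 for MLS1 (adjusted p = 0.56) and 0.14 for CRC1 (adjusted p = 0.20), nor did they then pass relative to the chromosome, at 0.19 and 0.20 (adjusted p = 0.074 and 0.072). CIT2, the peroxisomal citrate synthase gene, fell by 0.63 (adjusted p = 0.00081), and ACO1, the aconitase gene, by 0.62 (adjusted p = 0.00071). ACS1, the acetyl-CoA synthetase gene on I, rose by 0.77 and was at 0.17 relative to the chromosome (adjusted p = 0.068). There it passed with quantile normalization, cyclic loess or array weights at 0.19 to 0.21 (adjusted p = 0.010 to 0.045). With the median of gene deviations ACS1 was at 0.04 and did not pass (adjusted p = 0.64). YAT2 fell by 0.25 (adjusted p = 0.0075) and did not pass relative to the chromosome, at -0.15 (adjusted p = 0.069).

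Of 8 other regulator genes 5 rose and 3 fell. OAF1, the partner of PIP2, averaged 10.65 in nab2-1 against 9.73 in the wild type, with a rise of 0.92 ± 0.06 (adjusted p = 1e-05). It lies on chromosome I, whose median level shifted by 0.60, and was at 0.32 relative to the chromosome (adjusted p = 0.0020). With the median of gene deviations OAF1 was at 0.19 (adjusted p = 0.029). OAF3, a repressor gene of the oleate response on XI, rose by 0.96 and was at 0.18 relative to it (adjusted p = 0.083), or at 0.21 with the median of gene deviations (adjusted p = 0.033). Of the glucose derepression genes, SNF4 fell by 0.83 (adjusted p = 1.7e-05) and SNF1 by 0.41 (adjusted p = 0.0014), and the repressor gene MIG1 fell by 0.54 (adjusted p = 0.00011). SNF1 and MIG1, like TGL3 above, did not pass when scaled to the spiked controls. SIP4, CAT8 and REG1 rose by 0.82, 0.44 and 0.38 (adjusted p = 0.0009, 0.0088 and 0.00059), but CAT8 did not pass with quantile normalization, at 0.21 (adjusted p = 0.10). Of 6 other Adr1 target genes 1 rose and 2 fell: ATO3 fell by 1.18 (adjusted p = 1.6e-05) and the acetaldehyde dehydrogenase gene ALD4 by 0.97 (adjusted p = 0.00035), whereas ICL2, on XVI, rose by 0.92 and was at 0.04 relative to the chromosome, or at 0.17 with the median of gene deviations (adjusted p = 0.021).

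**Figure D4:**
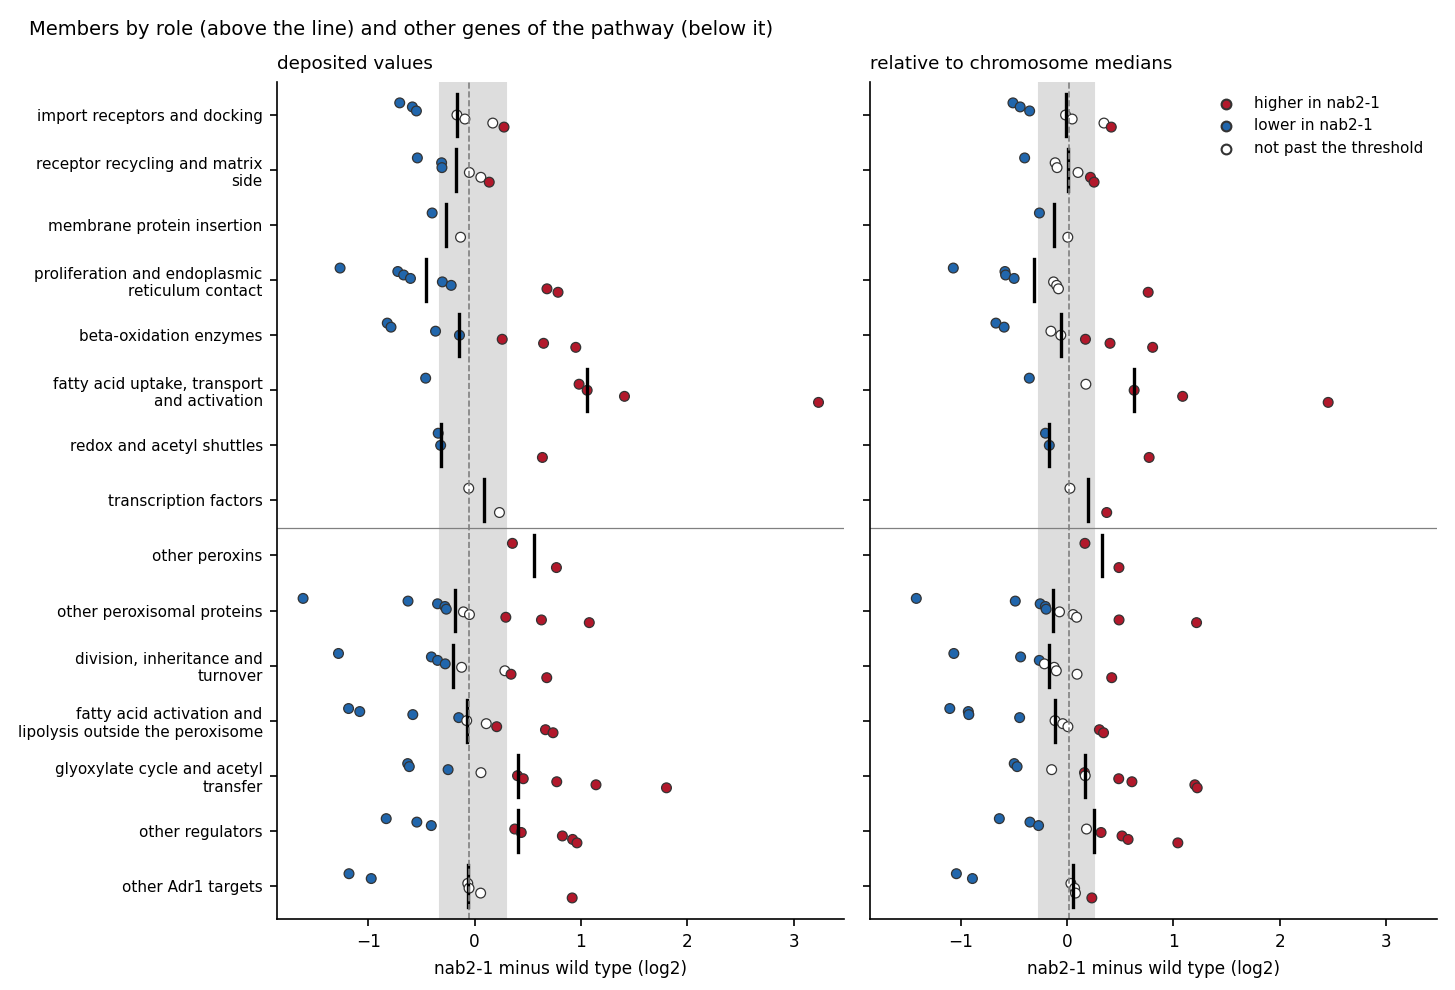
Difference between nab2-1 and wild type (x axis, log2) for the 40 genes by role, above the line, and for the other lists of the pathway, below it, as deposited (left) and relative to the chromosome (right). Each point is a gene, coloured by its call, the black bars are list medians, and the grey band and dashed line are the interquartile range and median of all 5449 genes; the uptake, transport and activation genes have the highest median in both panels, 1.06 and 0.63.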

How the data were processed

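The deposited table holds log2 values of 10928 probe sets on 6 arrays, made by the authors with GCOS, RMA and limma per the submitters' processing notes, which give no versions or order. Values were used as deposited, with no detection calls and no depth, and precision rests on the number of arrays. Of the probe sets 5498 had 1 S. cerevisiae gene, 1 had several, 1746 were for the second yeast species covered, 213 were controls and 3470 remained unnamed. Genes were named through the RefSeq table of assembly R64, and the probe set with the highest mean was kept, which left 5449 genes. Chromosomes were read from systematic names. The 95th percentile of that second species' probe sets, 4.27, served as the level without target RNA, and all 40 genes had means above it.

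The main test was lmFit with eBayes from limma 3.58.1 (R 4.3.3; two-sided), checked on simulated data, with adjusted p under 0.05. For values relative to the chromosome, each array was lowered by the deviation of its chromosome's median level from that median's mean over the 6 arrays. Named genes were all 40, NAB2, up to 8 genes past the threshold of each other list and the neighbours of a gene that differed by over 2 log2 units. The genes and lists were chosen with earlier results of these data known. Deviations of same-numbered samples correlated at -0.19, 0.19 and -0.14, and those of unlike-numbered samples at -0.24 to 0.27. With 3 arrays per group these values cannot decide whether the numbers pair the samples. Figures were drawn with matplotlib 3.10.9. Promoter motifs and targeting signals were not analysed here.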

Additional observations from a re-analysis of the deposited data

How the results depend on the processing

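The alternatives were other scalings, variance models, array weights, filters, thresholds, every probe set, the replicate block and each array left out; other definitions of promoter motifs and targeting signals were not run. Leaving out 1 array gave 1499 to 1681 genes higher and 1838 to 2012 lower, with 11 to 12 of the 40 higher and 18 to 20 lower; relative to the chromosome these were 1479 to 1704, 1475 to 1661, 10 to 12 and 12 to 14. Scaling to the 36 spiked poly(A) probe sets moved the median of all genes from -0.05 to 0.22, left 622 genes lower against 2133 higher (deposited 2028 and 1644), and 6 of the 40 lower against 14 higher; the spiked amounts are not given in the sources used here. Without the dimmest 25% of genes only 19 of the 40 were tested, 3 higher and 12 lower against 30.3% and 39.4% of the 4087 genes left, or 2 and 9 against 33.2% and 31.5% relative to the chromosome. With the replicate block, whose numbers are not known to pair the samples, 1582 genes were higher and 1932 lower. The calls of PEX15, PEX29 and DCI1 were then lost (adjusted p = 0.076, 0.052 and 0.054) and that of ADR1 gained (0.028).

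Directions turned in these cases; the cause was not tested. Scaled to the spiked controls PEX5 was at 0.18, PEX17 at 0.11, PEX6 at 0.22, PEX19 at 0.14, PEX29 at 0.05, DCI1 at 0.13, PIP2 at 0.22, GTO1 at 0.008, TGL1 at 0.12 and YAT2 at 0.024. Relative to the chromosome PEX5 was at 0.047, PEX6 at 0.10, PEX19 at 0.006, PEX25 at -0.10, PIP2 at 0.026, ANT1 at -0.25, CAF4 at -0.10, TGL4 at -0.042, VPS1 at -0.44 and YJU3 at -0.11. Cyclic loess put PEX6 at 0.01 and PIP2 at 0.021, and quantile normalization PEX18 at -0.16. On the scale relative to the chromosome, PEX5 was at -0.017 without nab2-1 replicate 2; leaving out each array put PEX17 at -0.193 to 0.126, PEX19 at -0.056 to 0.046 and ICL2 at -0.016 to 0.091, and PEX19 was at -0.006 without the dimmest genes. With the median of gene deviations, added after the data were seen, PEX19 was at -0.022 and PEX25 at 0.038. Apart from the spiked scaling, the filter on the dimmest genes and the stricter threshold of 0.01, 18 of the 40 genes kept their call and direction on both scales under all alternatives, 7 higher and 11 lower, against 15.7% and 20.6% of all genes, where a gene removed by a filter counts as not kept.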
